A study of Homo sapiens with 18 samples.

Results

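The MYC and MAX network was followed as 10 genes, *MYC*, *MYCN*, *MAX*, *MXD1*, *MXI1*, *MXD3*, *MXD4*, *MNT*, *MGA* and *MLX*, which were found by symbol among the 59251 gene symbols of the raw count table. Of these genes, 9 passed the filter on low counts and were tested together with all 17966 genes that passed. *MYCN* did not pass. The network works through pairs of basic helix-loop-helix leucine zipper proteins: MYC proteins activate genes when bound to MAX, whereas the MXD proteins, MXI1, MNT and MGA compete for the same partner and repress. MLX is a MAX-like partner that pairs with the glucose-responsive proteins MLXIP (MondoA) and MLXIPL (ChREBP), and with some of the MXD proteins and MNT. In dividing cells MYC is known to drive growth programmes such as ribosome production, nucleotide synthesis and glycolysis, and the MXD genes are best known from cells that leave the cycle.

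The study tested a split version of Csy4, a bacterial endoribonuclease that cuts RNA at a short hairpin, in HEK-293T cells, human kidney-derived cells transformed with the SV40 large T antigen. Poly(A) RNA was sequenced from 18 libraries, 3 in each of 6 groups, with 70000 cells plated per sample. The untransfected groups received DMSO, the vehicle (0.5 µM as labelled), rapamycin (0.1 µM), an inhibitor of the growth kinase complex mTORC1, or grazoprevir (0.5 µM), a hepatitis C protease inhibitor that serves here as the trigger. The other 3 groups were transfected with full-length Csy4 and given DMSO, with split Csy4 and given DMSO, or with split Csy4 and given grazoprevir, in each case 6 hours after transfection. Every transfected group carried a Csy4 construct, so the effects of transfection, of the plasmid and of the enzyme on a network gene cannot be told apart against the untransfected groups. The comparison of full-length with split Csy4 under DMSO is between transfected cells given the same vehicle. No full-length Csy4 cells received grazoprevir. Against split Csy4 under grazoprevir, the form of the enzyme and the drug therefore differ together, and their effects cannot be told apart. Whether the 3 libraries per group are separate cultures is not in the labels, and the p-values therefore cover the spread among these libraries alone.

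Libraries held 12362101 to 19095828 counts. Levels are given as CPM, counts scaled to a common library size. Of 8 genes expressed by HEK-293T cells, 7 were at 1 CPM or more in every group, with *NEFM* at or near 0, and their summed level was 397 to 485 CPM. Of 5 blood cell markers 1 reached 1 CPM, with a summed level of 2.14 to 5.09 CPM. The summed level of 5 fibroblast markers was 58.8 to 60.4 CPM with DMSO and 38.3 to 39.6 CPM with rapamycin. It was 37.2 to 45.6 CPM with full-length Csy4 and 46.0 to 53.8 CPM in both split Csy4 groups. Most of it was *COL3A1* and *COL1A1*, which differed in direction with full-length Csy4. *COL3A1* was at 21.2 CPM there against 39.85 CPM with DMSO, and *COL1A1* at 20.1 against 17.7 CPM. With rapamycin they were at 29.8 and 8.71 CPM. The summed level of 5 epithelial carcinoma markers was 15.3 to 15.65 CPM with DMSO, 8.39 to 8.54 CPM with rapamycin and 11.5 to 16.4 CPM elsewhere. That of 3 hepatocyte markers was 0.0626 to 0.159 CPM with DMSO, 0.672 to 2.32 CPM with full-length Csy4 and at most 0.502 CPM elsewhere. Among them *ALB* averaged 0.0438 CPM with DMSO and 1.21 CPM with full-length Csy4. The part of these markers in the results was not tested. Grazoprevir replicate 1 stood apart from the other grazoprevir libraries over the genes that averaged 10 CPM or more. Its root mean square log2 distances from them were 0.170 and 0.155, while they were 0.124 from each other. Distances within the other groups were 0.121 to 0.143. The library enters every comparison with grazoprevir alone, and *MLX* and *MGA*, for which it also stood apart, are given with and without it. In RNA from whole cultures, fewer cells that express a gene and less RNA of that gene in each cell cannot be told apart.

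Promoter sequences (250 bases before to 50 bases after the annotated start) were matched in RefSeq, build GRCh38.p14, for 9 of the 10 genes; *MYC* was not matched. The promoters of *MXD1* and *MXD4* are shown because both genes rose with rapamycin and *MXD1* also rose in all Csy4 groups. The E-box CACGTG, the motif that MAX pairs are known to prefer and which reads the same on both strands, is in capitals.
*MXD1*, chr2:69914859-69915158, plus strand: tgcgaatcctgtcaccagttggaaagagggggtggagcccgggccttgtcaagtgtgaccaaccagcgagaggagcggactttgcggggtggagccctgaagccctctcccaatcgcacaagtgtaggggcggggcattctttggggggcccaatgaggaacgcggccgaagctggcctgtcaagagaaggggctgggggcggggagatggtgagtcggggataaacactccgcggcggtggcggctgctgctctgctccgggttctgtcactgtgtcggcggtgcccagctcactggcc
*MXD4*, chr4:2262060-2262359, minus strand: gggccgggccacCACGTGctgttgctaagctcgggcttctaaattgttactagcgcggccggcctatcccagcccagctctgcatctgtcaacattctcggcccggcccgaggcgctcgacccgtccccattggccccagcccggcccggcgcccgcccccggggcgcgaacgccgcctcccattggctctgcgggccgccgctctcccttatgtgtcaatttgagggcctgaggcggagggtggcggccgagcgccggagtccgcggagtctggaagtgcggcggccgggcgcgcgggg
The *MXD4* window held 1 E-box, 238 bases before the start, and the *MXD1* window held none. Among the 9 matched genes, 3 had the motif, the other two being *MNT* at 193 and *MLX* at 50 bases before the start. Of 27305 promoters of the same length, 1963 (7.19%) held it. The related hexamer CACGCG, searched on both strands, was found in the *MXI1* and *MXD3* windows and in 11% of all promoters. A further variant, CATGTG, also searched on both strands, was in 0 of the 9 windows and in 11.5% of all promoters. A match in these windows is a description of the letters and was not measured as binding.

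In DMSO cells *MYC* was the most abundant network transcript per length of its exons, at 69.0 CPM per kilobase. *MAX* (21.4), *MLX* (21.0) and *MXI1* (19.5) followed, with SDs of 1.03, 0.62 and 1.16 CPM per kilobase (n = 3), and *MAX* and *MLX* did not differ beyond their spread. *MGA* stood at 11.6, *MXD4* at 7.10 and *MNT* at 5.18 CPM per kilobase. *MXD1* (1.87) and *MXD3* (1.58) were the lowest of the tested genes on this scale. *MYCN*, the MYC relative of neural tissue, had 4 counts over all 18 libraries, 1 in DMSO replicate 2, 2 in grazoprevir replicate 2 and 1 in replicate 2 of split Csy4 with DMSO. A count of 0 allows a level of up to 0.159 to 0.244 CPM, depending on the library, for counting error alone, so a *MYCN* change below that level was not detectable at this depth.

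*MYC*, the activator, fell in every group that received a Csy4 construct and had nearly the same level in the 3 untransfected groups. It was at 204, 210 and 206 CPM with DMSO, 213, 212 and 209 CPM with rapamycin, and 211, 203 and 195 CPM with grazoprevir. With full-length Csy4 it was at 112, 109 and 123 CPM. With split Csy4 it was at 145, 149 and 148 CPM under DMSO and at 152, 144 and 150 CPM under grazoprevir. The levels thus formed 3 tiers that did not overlap: all 9 untransfected libraries above all 6 split Csy4 libraries, and these above all 3 with full-length Csy4.

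Against DMSO, *MYC* fell by 0.85 ± 0.042 on the log2 scale with full-length Csy4 (SE, edgeR quasi-likelihood test, Benjamini-Hochberg adjusted p = 5.08e-30), to 0.55 of its DMSO level. It fell by 0.49 ± 0.041 with split Csy4 under DMSO (edgeR adjusted p = 1.24e-16) and by 0.48 ± 0.041 with split Csy4 under grazoprevir (edgeR adjusted p = 3.13e-16). These comparisons share the DMSO libraries. Between transfected groups, *MYC* was lower with full-length than with split Csy4 under DMSO, by a log2 difference of -0.36 ± 0.043 (edgeR adjusted p = 6.34e-11). Grazoprevir given to split Csy4 cells left a log2 difference of 0.01 ± 0.042 in *MYC* (edgeR adjusted p = 0.984), with an approximate 95% interval of -0.07 to 0.09. With rapamycin the log2 difference from DMSO was 0.03 ± 0.040 (edgeR adjusted p = 0.574), with an interval of -0.05 to 0.11.

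**Figure D1:**
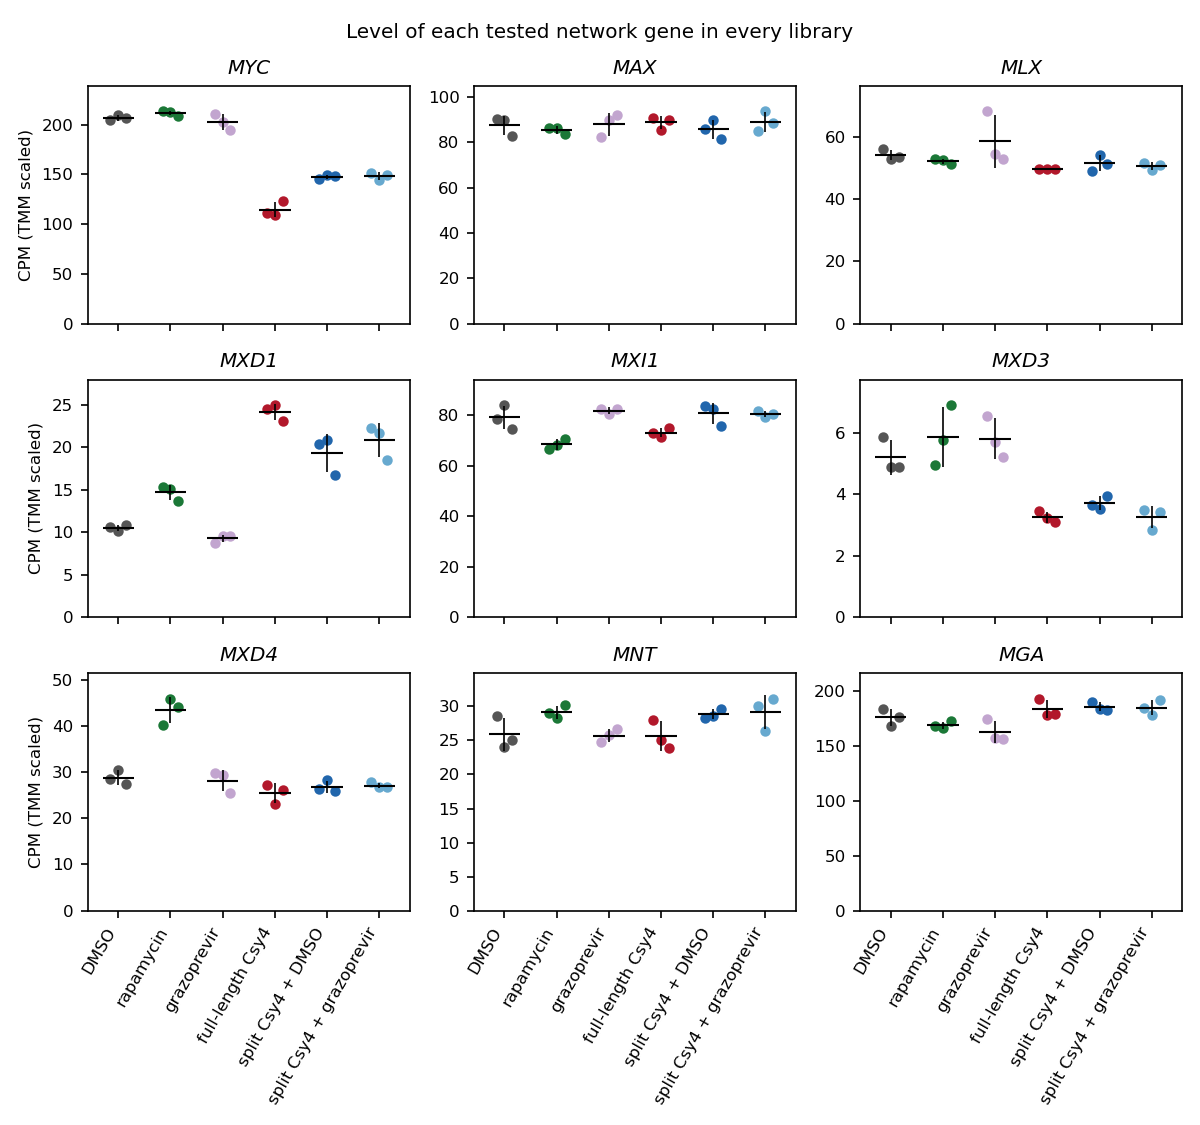
Level of each tested network gene in CPM (vertical axes, linear and starting at 0) in the 3 libraries of each group (points), with the group mean (horizontal line) and SD (vertical line). *MYC* is lowest with full-length Csy4 (109 to 123 CPM), *MXD1* is highest there (23.1 to 24.9 CPM), and *MXD4* is highest with rapamycin (40.3 to 45.9 CPM).

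*MAX*, the shared partner, was level across the study. Its group means ran from 85.5 to 89.1 CPM, with SDs of 1.61 to 5.12 CPM (n = 3 in each group), and it was not called in any of the 11 comparisons, also at an unadjusted p. Its log2 difference from DMSO with full-length Csy4 was 0.02 ± 0.051, with an approximate 95% interval of -0.08 to 0.12. *MAX* overlaps *FNTB*, *CHURC1-FNTB*, *MIR4706* and *MAX-AS1* on chromosome 14 in the annotation. *FNTB* was counted at 0.0215 to 0.219 CPM on average in each group. Levels of the other overlapping genes are not given here, so the *FNTB* level does not cover the whole overlap.

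*MXD1*, a MAX-binding antagonist of MYC, rose with rapamycin and in all Csy4 groups. It lies at chr2:69915109-69942945 (GRCh38) on the plus strand. It was at 10.6, 10.1 and 10.9 CPM with DMSO and at 8.75, 9.51 and 9.53 CPM with grazoprevir. Rapamycin libraries were at 15.3, 15.03 and 13.7 CPM. Libraries with split Csy4 were at 20.4, 20.8 and 16.7 CPM under DMSO and at 22.2, 21.7 and 18.5 CPM under grazoprevir, and those with full-length Csy4 were at 24.4, 24.9 and 23.1 CPM. The rapamycin libraries stood above all DMSO and grazoprevir libraries and below every Csy4 library, and the full-length Csy4 libraries stood above all others.

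The rise of *MXD1* against DMSO was 1.2 ± 0.10 on the log2 scale, or 2.30-fold, with full-length Csy4 (edgeR adjusted p = 5.2e-17). It was 0.87 ± 0.11 with split Csy4 under DMSO (edgeR adjusted p = 2.6e-10), 0.98 ± 0.11 with split Csy4 under grazoprevir (edgeR adjusted p = 2.98e-12) and 0.48 ± 0.11 with rapamycin (edgeR adjusted p = 2.58e-04). *MXD1* was higher with full-length than with split Csy4 under DMSO by 0.33 ± 0.096 (edgeR adjusted p = 0.00585). That call rests on 1 library: without replicate 3 of split Csy4 under DMSO, at 16.7 CPM, the difference was 0.23 and the edgeR adjusted p 0.11. Full-length Csy4 against split Csy4 under grazoprevir gave 0.22 ± 0.096 (edgeR adjusted p = 0.0964). Split Csy4 with grazoprevir against without gave 0.11 ± 0.099 (edgeR adjusted p = 0.861; approximate 95% interval -0.08 to 0.30). *ASPRV1*, which overlaps *MXD1*, was at 2.90 CPM with DMSO and 2.93 CPM with full-length Csy4 and was not called there; the counting is not stated to use strand.

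*MXD3*, the MXD family member known from dividing cells, fell in the Csy4 groups at low levels. It lies at chr5:177305499-177312752 on the minus strand. It was at 5.87, 4.88 and 4.88 CPM with DMSO, against 3.45, 3.23 and 3.09 CPM with full-length Csy4. Split Csy4 libraries were at 3.64, 3.52 and 3.96 CPM under DMSO and at 3.50, 2.84 and 3.42 CPM under grazoprevir. All 9 Csy4 libraries were below all 9 untransfected libraries, of which rapamycin held 4.95, 5.76 and 6.91 CPM and grazoprevir 6.55, 5.69 and 5.21 CPM.

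The fall of *MXD3* against DMSO was -0.69 ± 0.19 on the log2 scale with full-length Csy4 (edgeR adjusted p = 0.00161) and -0.68 ± 0.19 with split Csy4 under grazoprevir (edgeR adjusted p = 0.00356). With split Csy4 under DMSO it was -0.49 ± 0.18 (edgeR adjusted p = 0.0344). That last call was lost without DMSO replicate 1 and without replicate 1 or replicate 2 of split Csy4, with no filter on low counts and with DESeq2, where the adjusted p reached 0.174 at the highest. *MXD3* overlaps *PRELID1*, which was at 72.2 CPM with DMSO and 72.4 CPM with full-length Csy4. *PRELID1* was called higher with split Csy4, at 80.7 CPM under DMSO (edgeR adjusted p = 0.0174) and 83.3 CPM under grazoprevir (edgeR adjusted p = 0.0017). Whether the overlap affects the *MXD3* counts was not tested.

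*MXD4*, another MXD repressor, rose with rapamycin and was the network gene with the largest change there. It lies at chr4:2247432-2262109 on the minus strand. It was at 40.3, 45.9 and 44.1 CPM with rapamycin against 28.4, 30.5 and 27.5 CPM with DMSO. The rapamycin libraries stood above all 15 other libraries, which ran from 23.1 to 30.5 CPM. The change with rapamycin was 0.59 ± 0.076 on the log2 scale, or 1.51-fold (edgeR adjusted p = 7.99e-10). With full-length Csy4 *MXD4* differed from DMSO by -0.18 ± 0.080 (edgeR adjusted p = 0.0556) and with split Csy4 by -0.10 and -0.09. Full-length Csy4 against rapamycin gave -0.77 ± 0.078 for *MXD4* (edgeR adjusted p = 5.49e-14), while it gave 0.72 ± 0.099 for *MXD1* (edgeR adjusted p = 3.32e-09).

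*MXI1*, an MXD relative that binds MAX, fell with rapamycin. It was at 66.5, 68.1 and 70.6 CPM with rapamycin, below the DMSO libraries at 78.5, 84.0 and 74.7 CPM. The change was -0.21 ± 0.052 on the log2 scale (edgeR adjusted p = 9e-04). With full-length Csy4, at 71.4 to 75.0 CPM, it differed from DMSO by -0.11 (edgeR adjusted p = 0.0629). It was lower with full-length than with split Csy4 under DMSO by -0.14 ± 0.052 (edgeR adjusted p = 0.0337, lost in 6 of 14 alternative analyses). Against split Csy4 under grazoprevir, where the drug also differs, the difference was -0.14 ± 0.053 (edgeR adjusted p = 0.0456, lost in 12 of 14).

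*MNT*, the broadly expressed MAX-binding repressor, was not called in any comparison, with group means of 25.7 to 29.2 CPM, and was at an unadjusted edgeR p under 0.05 in 6 of 11. *MGA*, which joins a MAX domain to a T-box domain and is part of the PRC1.6 repressor complex, was at 162 CPM with grazoprevir and at 169 to 185 CPM on average in the other groups. It was called higher in split Csy4 cells with grazoprevir than in untransfected cells with grazoprevir (0.19 ± 0.042, edgeR adjusted p = 3.15e-04). That difference was 0.06 after correction for gene length and GC content (edgeR adjusted p = 0.203) and 0.24 without grazoprevir replicate 1, which held *MGA* at 174 CPM against 157 and 156 CPM. Full-length Csy4 against rapamycin gave 0.12 ± 0.042 for *MGA* (edgeR adjusted p = 0.0148), and the call was lost without full-length Csy4 replicate 1 or rapamycin replicate B. *MLX* was at 49.3 to 56.2 CPM in 17 of the 18 libraries and at 68.3 CPM in grazoprevir replicate 1. It was called lower in split Csy4 cells with grazoprevir than in untransfected cells with grazoprevir (-0.21 ± 0.065, edgeR adjusted p = 0.00956). Without that library the difference was -0.09 (edgeR adjusted p = 0.355). *MLX* overlaps *PSMC3IP*, which was at 24.2 CPM with DMSO and higher with full-length Csy4, at 30.6 CPM (edgeR adjusted p = 3.01e-04). Whether this overlap affects the *MLX* counts was not tested.

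**Figure D2:**
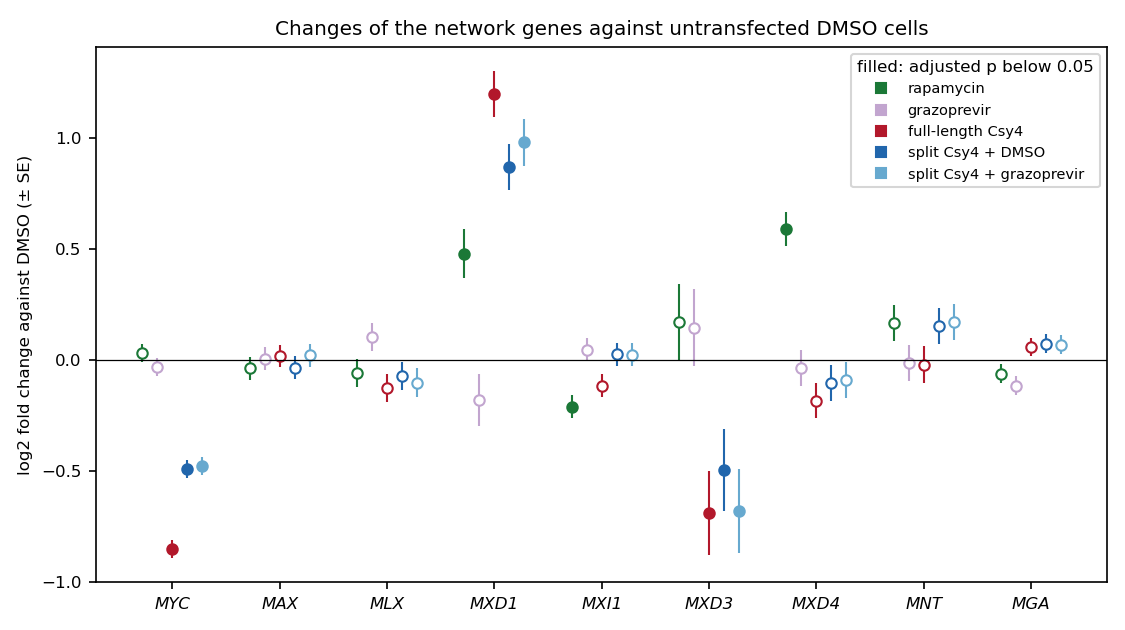
Log2 fold change of each tested network gene against DMSO (vertical axis; points, with bars for the SE) in 5 comparisons that share the 3 DMSO libraries. Filled points have an edgeR adjusted p below 0.05: *MYC*, *MXD1* and *MXD3* in all Csy4 groups, and *MXD1*, *MXD4* and *MXI1* with rapamycin.

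Counted over the network, 3 of 9 tested genes were called with full-length Csy4 against DMSO, *MXD1* higher and *MYC* and *MXD3* lower, where 46.9% of all tested genes were called (22.9% higher and 24% lower). After correction for gene length and GC content 7 of 9 were called in that comparison, with *MLX*, *MXI1* and *MXD4* also lower and *MGA* higher, where 53.3% of the 15367 genes with a known length were called. With split Csy4 the same count was 3 of 9 under DMSO, where 28.9% of all genes were called (14.8% higher and 14.1% lower), and 3 of 9 under grazoprevir, where 31.6% were called (16% higher and 15.6% lower). Rapamycin changed 3 of 9, against 33.2% of all genes (17.2% higher and 16% lower). Without that correction, the shares in these 4 comparisons with DMSO were near or below the background. Library totals alone, without scaling factors, moved the share of called genes that were higher from 48.8% to 61.1% for full-length Csy4 against DMSO, from 46.7% to 67.8% and from 45.5% to 67.5% against split Csy4 under DMSO and grazoprevir, and from 49.1% to 59.5% against rapamycin. Split Csy4 with grazoprevir against grazoprevir alone called 5 of 9, against 32.1% of all genes (16.2% higher and 16% lower). Full-length Csy4 against split Csy4 called 3 of 9 under DMSO, where 28% of all genes were called (13.1% higher and 14.9% lower). Full-length Csy4 under DMSO against split Csy4 under grazoprevir, where the drug also differs, called 2 of 9. There 22.3% of all genes were called (10.1% higher and 12.2% lower). Full-length Csy4 against rapamycin called 5 of 9, where 47.2% of all genes were called (23.2% higher and 24% lower).

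No network gene was called for grazoprevir in untransfected cells, where 0.2% of all genes were called (0.106% higher and 0.0946% lower). There edgeR gave 1 network gene, *MGA*, at an unadjusted p under 0.05 and DESeq2 called none. Grazoprevir in split Csy4 cells also called none, against 0.2% of all genes (0.195% higher and 0.00557% lower), with 0 at an unadjusted p under 0.05 in edgeR and 0 calls in DESeq2. The interaction, which is the grazoprevir effect with split Csy4 minus the one without transfection, called none either, against 0.351% of all genes (0.178% higher and 0.173% lower), with 0 at an unadjusted edgeR p under 0.05 and 0 in DESeq2. For *MYC* it was 0.04 ± 0.058, with an approximate 95% interval of -0.07 to 0.15. For *MXD1* it was 0.29 ± 0.15, with an interval of -0.01 to 0.59.

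Ratios of counts within a library do not depend on how libraries are scaled. The pairs were chosen after the levels had been seen. There were 2.27, 2.34 and 2.49 *MYC* counts per *MAX* count with DMSO and 2.46, 2.46 and 2.50 with rapamycin. The ratio was 1.23, 1.28 and 1.37 with full-length Csy4, below all others. With split Csy4 it was 1.65 to 1.82 under DMSO and 1.54 to 1.78 under grazoprevir.

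The ratio of *MXD1* to *MYC* counts, the antagonist set against the activator, was 0.0508 ± 0.00245 (SD, n = 3) with DMSO. It was 0.0693 with rapamycin, 0.131 and 0.140 with split Csy4 under DMSO and grazoprevir, and 0.212 with full-length Csy4. Full-length Csy4 libraries, at 0.187 to 0.228, stood above all others. With 3 against 3 libraries a two-sided exact permutation test cannot go below 0.1, which is the value for each of these ratios against DMSO in the Csy4 groups (0.135 adjusted over 50 tests).

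**Figure D3:**
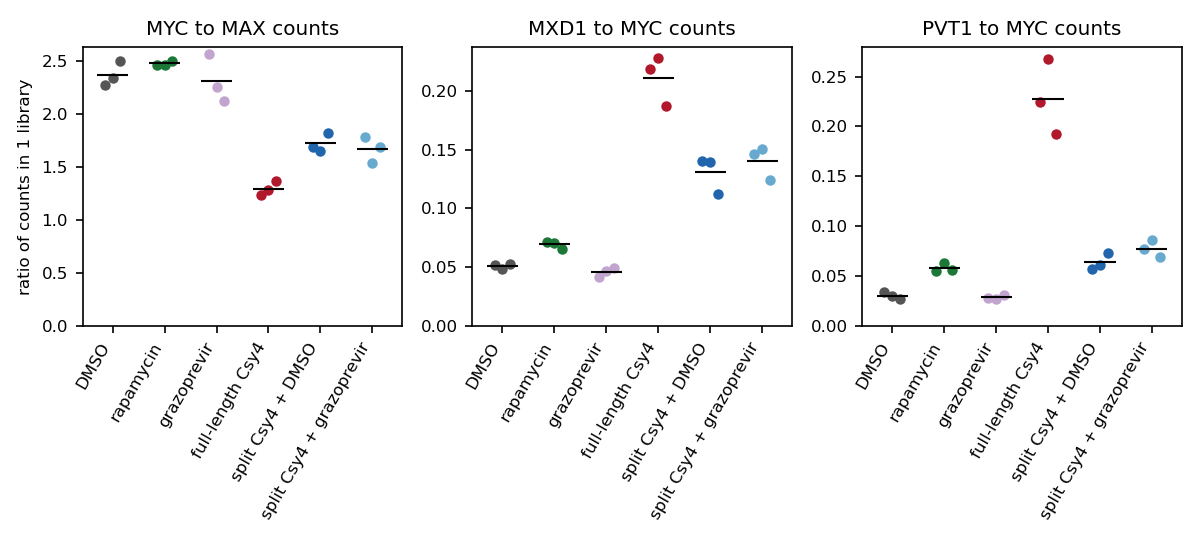
Ratio of raw counts of *MYC* to *MAX*, *MXD1* to *MYC* and *PVT1* to *MYC* within each library (points; vertical axes linear from 0), with group means as lines. Full-length Csy4 has the lowest *MYC* to *MAX* ratio (1.23 to 1.37) and the highest *MXD1* to *MYC* ratio (0.187 to 0.228).

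*PVT1*, a long noncoding RNA gene that neighbours *MYC* on chromosome 8, moved opposite to *MYC* in the Csy4 groups. It was at 6.83, 6.26 and 5.50 CPM with DMSO and at 25.0, 29.2 and 23.6 CPM with full-length Csy4. Split Csy4 libraries were at 8.25, 9.11 and 10.9 CPM under DMSO and at 11.7, 12.3 and 10.3 CPM under grazoprevir. Rapamycin libraries were at 11.8, 13.4 and 11.7 CPM, above all DMSO libraries, although *MYC* was not called there.

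*PVT1* rose by 2.06 ± 0.12 on the log2 scale with full-length Csy4 (edgeR adjusted p = 9.84e-26), 0.60 ± 0.14 with split Csy4 under DMSO (edgeR adjusted p = 3.17e-04) and 0.88 ± 0.13 with split Csy4 under grazoprevir (edgeR adjusted p = 1.35e-07). It rose by 0.98 ± 0.13 with rapamycin (edgeR adjusted p = 2.55e-09). Full-length against split Csy4 under DMSO gave 1.46 ± 0.11 (edgeR adjusted p = 2.34e-18). *PVT1* counts per *MYC* count were 0.0299 with DMSO and 0.228 with full-length Csy4.

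Among the relatives that share partners with the network, *MYCL*, the third MYC gene, was at 9.88 CPM with DMSO and fell by 0.35 ± 0.14 on the log2 scale with full-length Csy4 (edgeR adjusted p = 0.0363). The libraries overlapped, with DMSO replicate 1 at 8.15 CPM and full-length Csy4 at 7.43 to 8.25 CPM. *MYCL* was not called between full-length Csy4 and split Csy4 under DMSO (edgeR adjusted p = 0.751) or under grazoprevir (edgeR adjusted p = 0.284). *MLXIP* rose with rapamycin, from 70.7 to 91.0 CPM (0.36 ± 0.052, edgeR adjusted p = 1.82e-08), and differed from DMSO by 0.03 with full-length Csy4 (edgeR adjusted p = 0.625). *MLXIPL* was at 16.2 CPM with DMSO and fell by 0.35 with split Csy4 under DMSO (edgeR adjusted p = 0.0153). It was not called with split Csy4 under grazoprevir (-0.23, edgeR adjusted p = 0.132) or with full-length Csy4 (-0.0006, edgeR adjusted p = 0.997). In a list of 19 partner and corepressor genes, 6 rose and 1 fell with rapamycin, 6 rose and 5 fell with full-length Csy4, 4 rose and 3 fell with split Csy4 under DMSO, and 5 rose and 3 fell under grazoprevir. These calls made up 36.8%, 57.9%, 36.8% and 42.1% of the list, in the same order, against 33.2%, 46.9%, 28.9% and 31.6% of all tested genes. The median log2 change of the list with full-length Csy4 was 0.00, against -0.01 over all tested genes. Its median absolute log2 change was 0.15 there, against 0.28 over all tested genes, and 0.14 with rapamycin, against 0.21. With split Csy4 it was 0.08 against 0.19 under DMSO and 0.12 against 0.20 under grazoprevir.

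With full-length Csy4 the partner list held *TFDP1*, the dimer partner of E2F factors, at -0.63 ± 0.041 (edgeR adjusted p = 5.17e-23). *RYBP* (0.42), a PRC1 subunit, *SIN3B* (0.39), a corepressor scaffold that MXD proteins recruit, and *ZBTB17* (0.48), which encodes the MYC partner MIZ1, rose in the same comparison. *SIN3B* rose by 0.32 and *RYBP* by 0.25 with split Csy4 under DMSO. *YAF2*, a relative of *RYBP*, rose by 0.70 with full-length Csy4, and by 0.47 and 0.44 with split Csy4 under DMSO and grazoprevir. With rapamycin *HDAC1*, a deacetylase of the SIN3 complex, rose by 0.17, *TFDP1* by 0.19 and *USF2*, an E-box factor outside the network, by 0.27.

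Cofactors and regulators of MYC synthesis and turnover moved in both directions. Of 24 tested genes, 7 rose and 10 fell with full-length Csy4, and 9 rose and 6 fell with rapamycin. With split Csy4, 8 rose and 4 fell under DMSO, and 8 rose and 5 fell under grazoprevir. The calls made up 70.8% of the list with full-length Csy4 against 46.9% of all tested genes, and 62.5% with rapamycin against 33.2%. They made up 50% with split Csy4 under DMSO against 28.9%, and 54.2% under grazoprevir against 31.6%. The list's median log2 change was -0.01 with full-length Csy4 and 0.02 with rapamycin, as over all tested genes. Its median absolute log2 change was below that of all tested genes, at 0.19 against 0.28 with full-length Csy4 and 0.16 against 0.21 with rapamycin. With split Csy4 it was 0.14 against 0.19 under DMSO and 0.13 against 0.20 under grazoprevir. The larger share of calls thus does not mean larger changes. *FBXW7*, the ubiquitin ligase subunit that marks MYC protein for destruction, rose by 0.82 ± 0.058 with full-length Csy4 (edgeR adjusted p = 5.02e-21) and by 0.44 with rapamycin. *SKP2*, another ligase subunit that acts on MYC, fell by 0.40 with full-length Csy4 and by 0.29 and 0.34 with split Csy4. *AURKA*, which stabilises MYC proteins, fell by 0.32 with rapamycin, and *CDK9*, the kinase of transcript elongation, fell by 0.47 with split Csy4 under DMSO.

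Genes listed as activated by MYC (48, of which 47 were tested) mostly fell with rapamycin and with full-length Csy4. With rapamycin 2 rose and 40 fell, although *MYC* itself was not called; 17.2% of all genes rose and 16% fell, and the list's median log2 change was -0.27 against 0.02 over all tested genes. With full-length Csy4 5 rose and 27 fell, with a median of -0.19 against -0.01 over all tested genes, of which 22.9% rose and 24% fell. With split Csy4 9 rose and 14 fell under DMSO (median -0.03; 14.8% of all genes rose and 14.1% fell) and 8 rose and 19 fell under grazoprevir (median -0.06; 16% rose and 15.6% fell). Full-length against split Csy4 under DMSO gave 0 higher and 28 lower, with a median of -0.13 against 0.00 over all genes, of which 13.1% were higher and 14.9% lower. Scaling by library totals alone changed these counts to 8 higher and 24 lower with full-length Csy4 against DMSO, and to 4 higher and 21 lower against split Csy4. Under that scaling 61.1% and 67.8% of all called genes were higher in these comparisons, in the same order. As reported, the list's median absolute log2 change was 0.27 with rapamycin, against 0.21 over all tested genes. It was 0.195 with full-length Csy4, against 0.28. With split Csy4 it was 0.10 against 0.19 under DMSO and 0.12 against 0.20 under grazoprevir.

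*SHMT2*, the mitochondrial serine hydroxymethyltransferase of folate metabolism, fell by 0.82 ± 0.041 with full-length Csy4 (edgeR adjusted p = 2.07e-29), from 204 to 115 CPM. It fell by 0.61 and 0.64 with split Csy4 under DMSO and grazoprevir and by 0.76 with rapamycin. *LDHA*, lactate dehydrogenase A, fell by 0.40 with full-length Csy4 and by 0.58 with rapamycin. *IMPDH2* and *PAICS*, enzymes of purine synthesis, fell by 0.43 and 0.33 with full-length Csy4. The amino acid transporter *SLC7A5* fell by 1.49 ± 0.050 with rapamycin, from 148 to 52.7 CPM (edgeR adjusted p = 3.21e-39), and the nucleolar gene *NPM1* fell by 0.72. *ODC1*, the polyamine enzyme often used as a MYC target, went the other way in Csy4 cells: it rose by 0.08 ± 0.034 with full-length Csy4 (edgeR adjusted p = 0.0331), by 0.27 and 0.18 with split Csy4 under DMSO and grazoprevir, and fell by 0.15 with rapamycin.

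**Figure D4:**
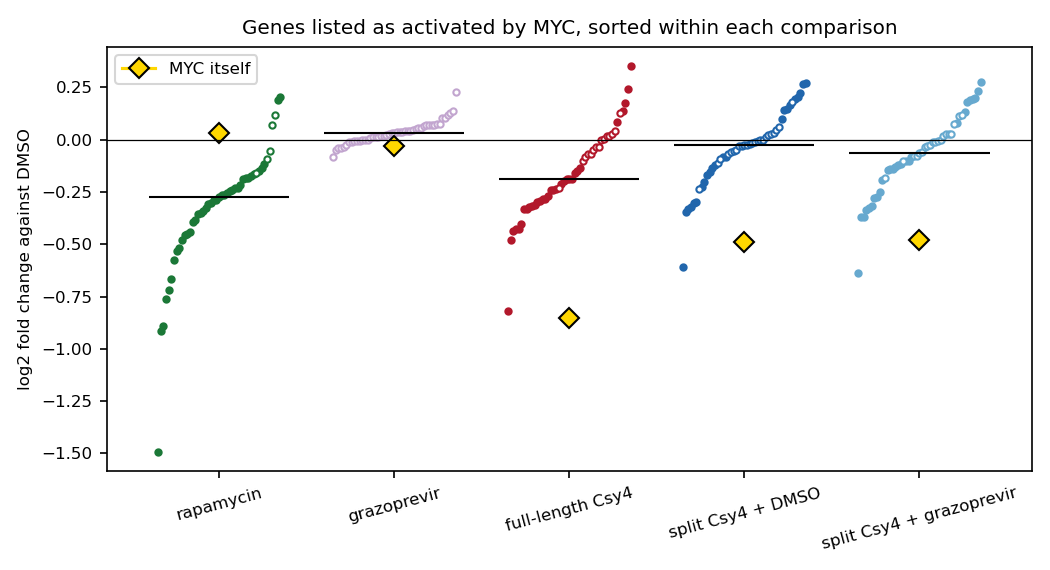
Log2 fold change against DMSO (vertical axis) of the 47 tested genes listed as activated by MYC, sorted within each of 5 comparisons that share the DMSO libraries; filled points have an edgeR adjusted p below 0.05, lines are medians and diamonds are *MYC* itself. With rapamycin the median is -0.27 while *MYC* is at 0.03; with full-length Csy4 the median is -0.19 and *MYC* is at -0.85.

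Genes listed as repressed by MYC, or as activated by MLXIP with MLX, numbered 14, of which 13 were tested. Whether each gene, *ID2* among them, belongs to such a class in these cells was not tested. With rapamycin 7 rose and 2 fell, with full-length Csy4 5 rose and 4 fell, and with split Csy4 2 rose and 4 fell under DMSO and 5 rose and 3 fell under grazoprevir. The calls made up 69.2%, 69.2%, 46.2% and 61.5% of the list, in the same order, against 33.2%, 46.9%, 28.9% and 31.6% of all tested genes. The list's median log2 change was 0.34 with rapamycin, 0.13 with full-length Csy4, and -0.01 and 0.16 with split Csy4, against 0.02, -0.01, 0.00 and 0.00 over all tested genes. *CDKN1A*, the cell cycle inhibitor p21, rose by 1.46 ± 0.059 with rapamycin (edgeR adjusted p = 2.54e-35) and by 1.22 ± 0.059 with full-length Csy4 (edgeR adjusted p = 5.08e-30). With split Csy4 *CDKN1A* differed from DMSO by -0.06 under DMSO (edgeR adjusted p = 0.536) and rose by 0.35 under grazoprevir, and grazoprevir raised it within split Csy4 cells by 0.41 ± 0.065 (edgeR adjusted p = 2.9e-05). *GADD45A*, a growth arrest gene, rose from 28.7 to 123 CPM with full-length Csy4 (2.10 ± 0.067, edgeR adjusted p = 2.02e-38) and by 0.71 and 0.98 with split Csy4. *NDRG1*, a stress-responsive gene, fell by 0.59 both with rapamycin and with full-length Csy4. *ID2*, an inhibitor of helix-loop-helix factors, rose by 0.70 with rapamycin and fell by 0.18 with split Csy4 under DMSO.

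*TXNIP* and *ARRDC4*, both known as MLXIP targets and named whatever their values, differed in direction between rapamycin and full-length Csy4. *TXNIP*, a thioredoxin inhibitor, rose by 0.45 ± 0.051 with rapamycin and fell by 0.51 ± 0.054 with full-length Csy4. Full-length Csy4 against rapamycin gave -0.96 ± 0.053 for *TXNIP* (edgeR adjusted p = 8.22e-27). *ARRDC4*, an arrestin relative, rose by 0.34 ± 0.054 with rapamycin and fell by 0.86 ± 0.059 with full-length Csy4, and the direct comparison gave -1.19 ± 0.058 (edgeR adjusted p = 8.18e-30). Both also fell with split Csy4, *TXNIP* by 0.15 and 0.32 and *ARRDC4* by 0.43 and 0.49 under DMSO and grazoprevir.

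By Pearson's r of log2 CPM over the 18 libraries, among the 10128 tested genes that averaged 10 CPM or more, the genes most like *MYC* were *EIF3L* (0.990), *COL14A1* (0.978), *PGD* (0.977), *RPL13A* (0.977) and *RPLP0* (0.976). *EIF3L*, a subunit of translation initiation factor 3, was at 418 CPM with DMSO, 435 CPM with rapamycin, 311 CPM with split Csy4 under DMSO and 233 CPM with full-length Csy4. The genes most like *MXD1* were *VEZF1* (0.976), *SERINC1* (0.975), *RPAP2* (0.971), *DHX9* (0.964) and *SCAF4* (0.963). *VEZF1*, a zinc finger gene, was at 59.1 CPM with DMSO, 69.6 CPM with rapamycin, 77.9 CPM with split Csy4 under DMSO and 90.8 CPM with full-length Csy4. These likenesses describe libraries that fall into groups and share their scaling, and they come from picking the highest of many.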

How the data were processed

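Poly(A) RNA of HEK-293T cells was sequenced in 18 libraries. The deposited table holds raw counts per gene, which the authors made with cutadapt 1.9.1, HISAT2 2.2.1 and HTSeq 0.6.1 on hg38, per the submitters' processing notes, which also name DESeq2 1.44.0; strand setting and annotation are not given in the sources used here. The rapamycin columns share 1 header and are called replicates A, B and C. Positions come from RefSeq (GRCh38.p14, the same build) and exon lengths from GENCODE 29.

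Counts were filtered with filterByExpr, scaled with TMM and fitted in 1 robust quasi-likelihood model over 6 groups (edgeR 4.0.16, R 4.3.3). Genes were called at a Benjamini-Hochberg adjusted p below 0.05 over all 17966 tested genes. The SE is approximate, the log2 change over the root of the F statistic. The fit was tested on simulated counts. Alternatives were other scaling, filters, samples, a replicate block, DESeq2 1.42.0, a length and GC correction, and leaving out each library; the correction and the ratios were added after seeing the data. The network genes and gene lists were chosen with earlier results of these data known. Named genes are the network genes, set relatives and targets, and genes taken from the up to 4 called genes of smallest adjusted p per list and comparison, not all of which are named; 1 of them is not reported here.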

Additional observations from a re-analysis of the deposited data

How the results depend on the processing

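Numbers of network genes called kept within 1.5 times of the reported ones except as follows. With full-length Csy4 against DMSO 7 were called after a length and GC correction, where *MLX*, *MXI1* and *MXD4* were lower and *MGA* higher beside the 3 reported and 53.3% of all genes were called, and 3 to 5 without 1 library. With grazoprevir in untransfected cells 0 to 1 were called without 1 library (*MGA*, without grazoprevir replicate 1). Full-length against split Csy4 under grazoprevir called 1 with median-of-ratios factors, no filter, a 1 CPM filter, the replicate block or DESeq2, and 1 to 2 without 1 library; the call lost was *MXI1*. Over all genes, grazoprevir in untransfected cells called 36, and 7 with only those groups fitted, 66 with the replicate block, 83 with DESeq2 and 3 to 112 without 1 library. Grazoprevir in split Csy4 cells called 36, and 65 with the length and GC correction and 22 to 29 without 1 library. The interaction called 63, and 14 to 141 without 1 library. The cause of these shifts was not tested.

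Signs turned for differences that were not called either way. Without 1 library, *MAX* ran from -0.0227 (without DMSO replicate 3) to 0.044 with full-length Csy4, from -0.0723 to 0.00337 (without split replicate 3) with split Csy4 under DMSO, and from -0.0174 (without DMSO replicate 3; -0.0141 without split replicate 2) to 0.0508 under grazoprevir. *MNT* with full-length Csy4 ran from -0.0843 to 0.0602 (without DMSO replicate 1; 0.0296 without full-length replicate 3) and was at 0.0548 with library totals. *MXI1* ran from -0.0121 (without DMSO replicate 3; -0.000148 without split replicate 1) to 0.0704 with split Csy4 under DMSO and from -0.0142 (without DMSO replicate 3) to 0.0683 under grazoprevir. *MAX* with full-length Csy4 was at -0.000175 with no filter and -0.0284 with the length and GC correction, which gave -0.00611 for split Csy4 under grazoprevir. *MYC* in split Csy4 cells with against without grazoprevir ran from -0.00858 (without grazoprevir-treated replicate 1; -0.00188 without DMSO-treated replicate 1) to 0.031.

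Replicate numbers were not used to pair the samples in the main fit. Same-numbered deviations correlated from -0.228 to 0.233 over the pairs of numbered groups checked, and rapamycin columns carry no number. In no comparison of numbered groups did every sample correlate best with its own number. With full-length Csy4 against DMSO only DMSO replicate 3 did not (0.0193, against 0.0492 with full-length replicate 1). With grazoprevir against DMSO only grazoprevir replicate 3 did not (0.0207, against 0.099 with DMSO replicate 2). Fits with the replicate block kept every other network count within 1.5 times of the reported one. Depth limits *MYCN* and *MXD3*.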
